A study of Mus musculus with 21 samples.

Results

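A construct of TWIST1 paired with TCF3 (the TWIST1-TCF3 dimer) was compared with TWIST1 supplied alone (the TWIST1 monomer) across all genes in mouse embryoid bodies, the aggregates that embryonic stem cells form when they differentiate. The members are the 3 samples titled as the induced TCF3 dimer and the 3 titled as the induced monomer, chosen by title alone, 6 of the 21 samples in the series. All lines derive from A2loxCre embryonic stem cells, labelled C57BL/6, which take up a coding sequence behind a doxycycline-inducible promoter. The monomer group carries an integrated Twist1 monomer and the dimer group an integrated Twist1-Tcf3 dimer. Both received doxycycline for 16 h and were collected on day 3 of differentiation. Beside them stand 3 samples each of a Twist1 homodimer line, a Twist1-Tcf4 dimer line and the parental line without a construct, all with doxycycline, and 3 of the monomer line without doxycycline. A group labelled TCF12 dimer was left out of the main tests, because its count tables are written differently from all others and its sample 1 stood apart in earlier results of these data. The labels do not say whether a line is 1 clone, nor whether samples came from separate cultures, so p-values measure only the spread between these samples. The samples used hold no TCF3 dimer line without doxycycline, so a difference between the lines and an effect of the induced dimer cannot be told apart.

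TWIST1 is a basic helix-loop-helix (bHLH) transcription factor of the mesoderm and neural crest. Such factors bind DNA as pairs, at E-box words of the form CANNTG, and TWIST1 can pair with itself or with a widely expressed E-protein such as TCF3, TCF4 or TCF12. The Id proteins are helix-loop-helix factors that lack the DNA-binding stretch and sequester E-proteins, so that free TWIST1 and E-proteins compete for partners in a cell. In embryos, TWIST1 is known for cranial mesenchyme and neural crest, and in epithelial cells for epithelial-mesenchymal transition (EMT), the loss of epithelial junctions for a migratory, matrix-producing state. Day 3 embryoid bodies pass from pluripotency toward germ layers and also form primitive endoderm, an extraembryonic tissue that secretes basement membrane.

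Reads were counted per gene, and levels are given as CPM (the usual abundance unit, counts scaled to a common library total), adjusted for library composition. The scale does not correct for gene length, so levels are compared between libraries and not between genes. Total counts were 8913574 to 9398646 in the monomer libraries and 11101696 to 11928753 in those labelled TCF3 dimer. At these depths 3 counts correspond to 0.252 to 0.337 CPM. A gene passed when the adjusted p of edgeR's quasi-likelihood test was under 0.05, and "higher" or "lower" refers to the libraries labelled TCF3 dimer relative to the monomer libraries unless another group is named. Pairs of libraries of the same group differed by more than counting noise, with a chi-square per degree of freedom of 1.76 to 3.77, so none was counted as a duplicate. In bulk tissue, fewer cells of a type and less RNA per cell cannot be told apart.

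The promoters of 6 genes named in the results are shown first as examples, to let the E-box words be read in place. Each is the 250 bases before the RefSeq start on GRCm38.p6, read 5′ to 3′ along the gene's strand. Capitals mark 5 E-box words, searched on both strands. The word CATCTG reads CAGATG on the opposite strand. The word CACCTG likewise reads CAGGTG there. The remaining words, CATATG among them, are palindromes. The others of that kind are CAGCTG and, last, CACGTG. Of these genes Snai1 (chr2:167537945-167538194, plus strand), Isl1 (chr13:116309689-116309938, minus strand), Kdr (chr5:75978456-75978705, minus strand), Rgs4 (chr1:169747643-169747892, minus strand) and Hhip (chr8:80058009-80058258, minus strand) were higher, and Rab25 (chr3:88548280-88548529, minus strand) was lower.
Snai1: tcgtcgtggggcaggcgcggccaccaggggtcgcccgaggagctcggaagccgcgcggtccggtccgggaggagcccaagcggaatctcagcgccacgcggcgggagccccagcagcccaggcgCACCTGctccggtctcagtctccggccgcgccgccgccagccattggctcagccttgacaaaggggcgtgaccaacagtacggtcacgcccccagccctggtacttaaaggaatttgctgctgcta
Isl1: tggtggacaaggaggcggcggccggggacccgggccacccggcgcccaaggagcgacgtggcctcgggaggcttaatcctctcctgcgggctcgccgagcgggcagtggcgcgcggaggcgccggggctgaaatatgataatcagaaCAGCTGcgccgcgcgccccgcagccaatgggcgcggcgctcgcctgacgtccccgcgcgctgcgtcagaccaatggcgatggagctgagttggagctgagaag
Kdr: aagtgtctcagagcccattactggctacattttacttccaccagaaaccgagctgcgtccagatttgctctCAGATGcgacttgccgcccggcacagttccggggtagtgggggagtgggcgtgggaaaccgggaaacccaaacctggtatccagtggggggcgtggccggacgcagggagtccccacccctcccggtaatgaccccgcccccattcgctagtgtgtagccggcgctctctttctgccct
Rgs4: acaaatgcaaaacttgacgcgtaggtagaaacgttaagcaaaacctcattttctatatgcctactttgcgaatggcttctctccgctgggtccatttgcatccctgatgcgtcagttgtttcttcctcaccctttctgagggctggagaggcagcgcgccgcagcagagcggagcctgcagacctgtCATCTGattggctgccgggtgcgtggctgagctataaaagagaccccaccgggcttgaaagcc
Hhip: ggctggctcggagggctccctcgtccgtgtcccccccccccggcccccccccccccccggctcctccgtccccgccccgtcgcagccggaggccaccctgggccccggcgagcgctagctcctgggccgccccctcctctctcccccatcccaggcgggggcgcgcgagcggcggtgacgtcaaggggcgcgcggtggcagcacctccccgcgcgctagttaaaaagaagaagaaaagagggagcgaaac
Rab25: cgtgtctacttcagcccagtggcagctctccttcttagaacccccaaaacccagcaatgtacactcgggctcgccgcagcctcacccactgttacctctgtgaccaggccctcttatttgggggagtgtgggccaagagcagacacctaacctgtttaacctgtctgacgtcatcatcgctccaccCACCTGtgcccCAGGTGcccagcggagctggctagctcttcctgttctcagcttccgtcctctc

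The Snai1 window holds CACCTG 126 bases before the start, that of Isl1 CAGCTG at 103 and that of Kdr CAGATG at 179. The Rgs4 window holds CATCTG at 63, that of Hhip holds none of the words, and that of Rab25, a gene that was lower, holds CACCTG at 64 and CAGGTG at 53 bases before the start. Among the other largest rises named below, the windows of Tmem132c, Slc1a2 and Adcy5 also hold none of the words. Those of Frmpd3, Serpinf1 and Zic1 hold 1 or 2. Such words are common. CATCTG stands in 14.4% of all 32851 promoter windows, CATATG in 3.46%, CAGCTG in 13.0%, CACCTG in 17.2%, CACGTG in 6.02%, and any CANNTG in 66.2%. Only 68.8% of the genes that rose at least 2-fold had a window, so a share over that set was not computed. A word is a description of the letters, and binding was not measured in these libraries.

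The construct was checked first through the genes it is made of. Twist1 (chromosome 12, 33957671 to 33959829, plus strand, GRCm38) stood at 647, 604 and 584 CPM in the monomer libraries and at 57.3, 52.8 and 57.3 CPM in those labelled TCF3 dimer. The groups do not overlap, and the dimer libraries hold far less Twist1 RNA than the monomer libraries while holding more than the uninduced monomer line at 5.05 CPM and the parental line at 8.14 CPM. The difference from the monomer was -3.47 on the log2 scale (SE 0.06, adjusted p = 1.8e-27). By these counts the dimer construct was compared at a lower Twist1 RNA level than the monomer, and dose and partner cannot be told apart. Tcf3 (chromosome 10, 80409514 to 80433647, minus strand) stood at 178, 171 and 148 CPM in the monomer libraries and at 153, 154 and 162 CPM in those labelled TCF3 dimer. These ranges overlap and the difference of -0.11 did not pass (SE 0.05, adjusted p = 0.099), so the counts of Tcf3 do not show the partner that the label names. Without monomer library 3 the difference was -0.18 (adjusted p = 0.0037, edgeR), again toward less Tcf3. In the TCF4 dimer line, by contrast, Tcf4 stood at 329 ± 21.6 CPM (SD, n = 3) against 37.9 ± 2.77 in the monomer. Whether the integrated Tcf3 sequence would be counted at the Tcf3 gene was not tested, nor whether the dimer's Twist1 sequence is counted in full at Twist1. The libraries are called by their label throughout. The other E-protein genes were higher in these libraries, Tcf12 by 0.72 (63.2 ± 5.67 to 106 ± 15.0 CPM, adjusted p = 1.2e-08) and Tcf4 by 0.46 (37.9 ± 2.77 to 52.8 ± 4.08 CPM, adjusted p = 5.9e-05).

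**Figure D1:**
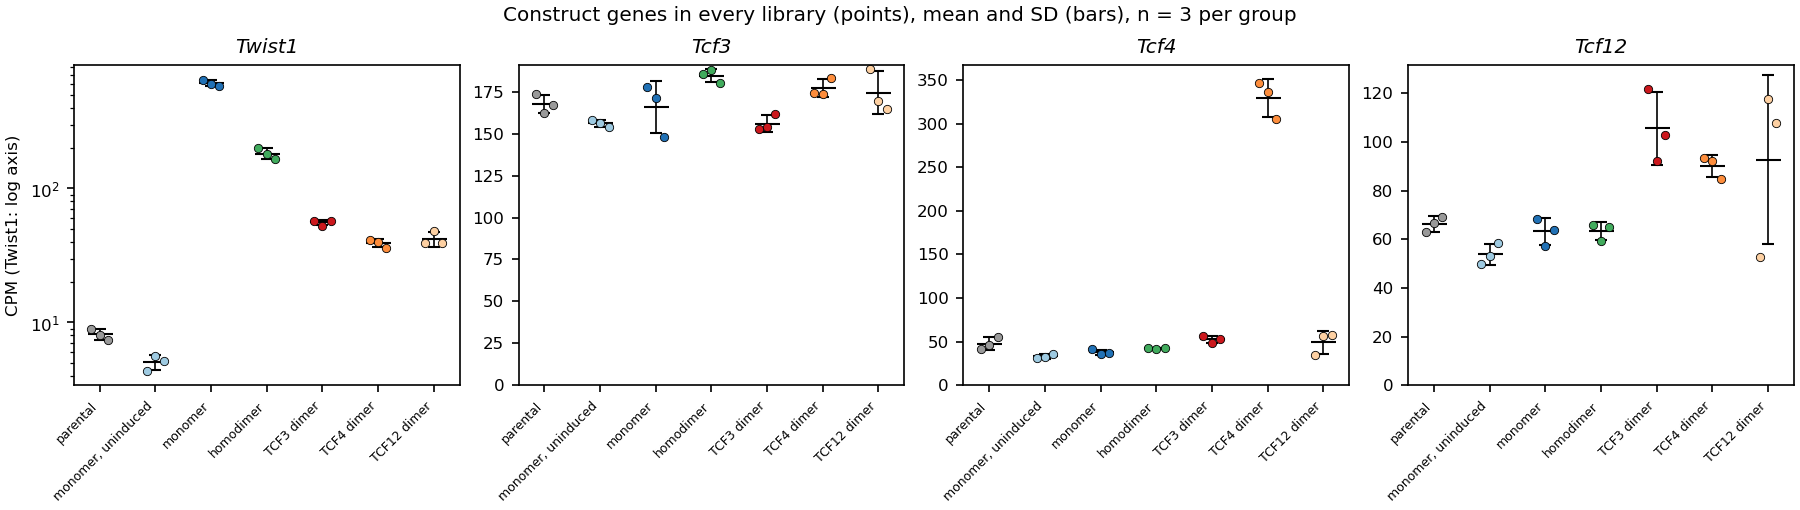
Levels of Twist1 (log axis), Tcf3, Tcf4 and Tcf12 in CPM for every library of the 7 groups, 1 point per library with the mean and SD of 3. Twist1 is highest in the monomer libraries, Tcf4 stands out in the TCF4 dimer libraries, and Tcf3 overlaps between the monomer libraries and those labelled TCF3 dimer.

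Across 14084 tested genes, 5898 (41.9%) passed. The split was even, with 2921 genes higher (20.7%) and 2977 lower (21.1%), but the large changes were mostly rises. The shares of 20.7% and 21.1% are the background for each count of list members against the monomer below. At least 2-fold, 654 genes were higher (4.64%) and 135 lower (0.959%), and 182 of the rises but 2 of the falls reached 4-fold. The median log2 difference over all tested genes was -0.02. Samples of the groups did not overlap for 7118 genes (50.5%), which is the background for each statement that groups do not overlap. When libraries were scaled by their totals alone, the split moved to 3550 higher and 2155 lower (62.2% of the calls higher). A fit that also held the TCF12 dimer group gave 3162 genes, of which 1822 were higher and 1340 lower, with a spread between replicates (BCV) of 0.12 in place of 0.0536. Library 1 labelled TCF3 dimer held the highest of its group's values in 451 of the 654 rises (69.0%), and without it 601 genes rose at least 2-fold.

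**Figure D2:**
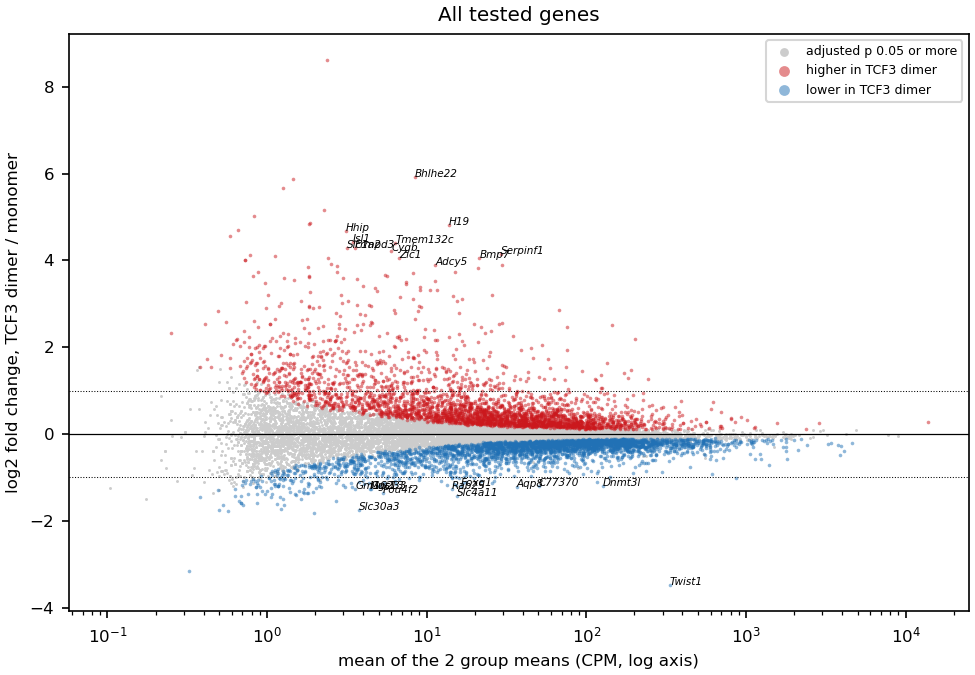
Log2 difference between the libraries labelled TCF3 dimer and the monomer libraries (vertical) against the mean of the group means in CPM (log axis), 1 point per tested gene, with passing genes in red (2921 higher) and blue (2977 lower) and the named genes labelled. Dotted lines mark 2-fold, and the point at 8.62 is Rgs4, which had no count in the monomer, so its fitted value is no measure of size.

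Among genes that reached 5 CPM and whose libraries did not overlap, the largest rises were Bhlhe22, H19, Hhip, Isl1, Tmem132c, Slc1a2, Frmpd3, Cygb, Serpinf1, Bmp7, Zic1 and Adcy5. Bhlhe22 (chromosome 3, 18054174 to 18057517), a bHLH transcription factor of neurons, went from 0, 0.336 and 0.429 CPM in the monomer libraries to 22.2, 12.2 and 15.2 CPM, a 60.4-fold difference (log2 5.92, SE 0.37, adjusted p = 8.8e-14). All 3 monomer libraries lie near the detection limit and all 3 labelled TCF3 dimer lie above 10 CPM. Serpinf1 (chromosome 11, 75409769 to 75422701), which encodes the secreted antiangiogenic factor PEDF, went from 2.84, 3.25 and 3.11 CPM to 79.9, 38.6 and 46.9 CPM (log2 4.14, SE 0.24, adjusted p = 1.6e-14). Bmp7 (chromosome 2, 172868012 to 172940321), a secreted bone morphogenetic protein, went from 2.73, 2.46 and 1.93 CPM to 49.2, 35.6 and 36.2 CPM (log2 4.07, SE 0.16, adjusted p = 3.1e-18). For both genes library 1 labelled TCF3 dimer was the highest, and libraries 2 and 3 were also more than 10 times every monomer library.

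Isl1, a LIM homeodomain factor of cardiac progenitors and motor neurons, went from 0.455, 0.448 and 0 CPM to 9.88, 4.54 and 5.44 CPM (log2 4.41, adjusted p = 3e-09). Zic1, a zinc finger factor of the neural plate border and somites, went from 0.742 ± 0.247 to 12.7 ± 2.37 CPM. Hhip, which binds and restrains Hedgehog ligands, went from 0.222 ± 0.297 to 6.03 ± 1.58 CPM. All 3 genes were below 1.1 CPM in every monomer library. The others were Adcy5, an adenylyl cyclase (1.40 ± 0.409 to 21.3 ± 4.52 CPM), the glutamate transporter gene Slc1a2 (0.295 ± 0.0589 to 6.05 ± 1.49), the cytoglobin gene Cygb (0.592 ± 0.234 to 11.4 ± 2.19), Tmem132c and Frmpd3. H19 (chromosome 7, 142575529 to 142578143), an imprinted long noncoding RNA, went from 0.569, 0.783 and 1.40 CPM to 32.8, 19.6 and 27.6 CPM (log2 4.82, SE 0.26, adjusted p = 3.7e-15). Its imprinted neighbour Igf2, looked up after H19 was seen, stood at 22.7 ± 1.44 and 25.6 ± 2.17 CPM and did not pass.

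None of these 12 genes passed between the induced and the uninduced monomer line, a comparison in which 914 genes passed (6.49%), while 77 of all 654 rises did. That comparison shares the monomer libraries with the one that chose the genes. Bhlhe22, Isl1, Hhip and Slc1a2 are near the detection limit in those libraries, so it can show little for them. Against the TCF4 dimer line, relative to which 21.2% of tested genes were higher and 20.3% lower, 11 of the 12 were higher and Slc1a2 did not pass (adjusted p = 0.2). Against the homodimer line, where the shares were 21.3% and 21.1%, all 12 were higher. The shares for each line are also the background for the counts of list members against it below. The comparisons with the TCF4 dimer and homodimer lines share the libraries labelled TCF3 dimer with the comparison that chose the genes. H19 differed most from the TCF4 dimer, which held 2.89, 2.30 and 4.01 CPM (log2 3.05, adjusted p = 5.5e-14), and Cygb differed least from the homodimer, which held 8.24 CPM (log2 0.43, adjusted p = 0.015).

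The Id genes, whose products sequester E-proteins, all rose. Id3 went from 45.03, 41.9 and 40.3 CPM in the monomer libraries to 291, 219 and 229 CPM (log2 2.52, SE 0.10, adjusted p = 1.6e-18). Id1 went from 74.5, 74.0 and 65.1 CPM to 407, 273 and 311 CPM, and Id2 from 68.7, 64.1 and 64.0 CPM to 258, 171 and 186 CPM. For each the lowest library labelled TCF3 dimer lay at more than 2 times the highest monomer library. Id4 went from 3.401 ± 0.373 to 29.9 ± 8.02 CPM and had the largest log2 difference of the 4, 3.11. The median over the 4 genes was 2.36, beside -0.02 over all tested genes. Id1, Id2 and Id3 were also higher in the induced than in the uninduced monomer line (log2 1.28, 0.96 and 1.03), and Id4 did not pass there (adjusted p = 0.7). All 4 were higher in the libraries labelled TCF3 dimer than in the TCF4 dimer line, by 0.42 to 0.97, and than in the homodimer line, by 1.40 to 1.97. Summed over the 4 genes, the libraries labelled TCF3 dimer held 686.2 to 995.3 CPM. The TCF12 dimer group, which was not tested, held 704.1 to 2085 CPM.

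EMT transcription factors rose together. All 9 tested genes of a list of 10 were higher, each by more than 2-fold, with a median of 2.79, and 8 or 9 passed under every setting tried. Snai1, which represses epithelial cadherin, went from 4.66, 5.37 and 4.83 CPM to 61.4, 34.5 and 42.1 CPM (log2 3.19, SE 0.18, adjusted p = 1.6e-14). Its relative Snai2 went from 0.910, 0.895 and 1.07 CPM to 10.8, 5.44 and 7.01 CPM (log2 2.98, adjusted p = 2.6e-09). Monomer and labelled dimer libraries do not overlap for either, and library 1 is the highest for both. The zinc finger repressor Zeb2 went from 3.99 ± 0.299 to 28.1 ± 5.39 CPM and Zeb1 from 2.63 ± 0.479 to 12.2 ± 2.27 CPM. Prrx1 and Prrx2, homeobox factors of limb and craniofacial mesenchyme, rose by 1.86 and 2.39, Foxc1 by 2.96, and the neural crest and cartilage factor Sox9 by 1.88. Tbx18, with 3 counts in all monomer libraries together, stood at 2.09, 1.34 and 1.16 CPM. Sox9 alone of the 9 was also higher in the induced than in the uninduced monomer line (log2 2.73, adjusted p = 9.3e-06). All 9 were higher than in the TCF4 dimer line (median 1.11) and than in the homodimer line (median 1.70).

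Genes of mesenchymal matrix and cytoskeleton rose in part. Of 34 tested genes, 20 were higher, 1 was lower (3 without library 3 labelled TCF3 dimer) and 13 did not pass, with a median of 0.54. Cdh11, a mesenchymal cadherin, went from 4.43, 3.36 and 3.33 CPM to 67.6, 43.6 and 55.2 CPM, the largest rise of the list (log2 3.88, SE 0.15, adjusted p = 1.9e-18). The intermediate filament gene Vim went from 92.9 ± 3.15 to 250 ± 44.2 CPM, the collagen crosslinking enzyme gene Lox from 1.29 ± 0.255 to 7.57 ± 2.15 CPM, and the receptor gene Pdgfrb from 6.14 ± 0.199 to 24.3 ± 6.17 CPM. The fibrillar collagen genes Col1a1, Col1a2 and Col3a1 were higher by 0.81, 1.43 and 1.72, the fibrillin gene Fbn1 by 1.45 and the collagenase gene Mmp2 by 1.36, whereas the N-cadherin gene Cdh2 was higher by 0.48. Sparc, a matrix glycoprotein gene also made by primitive endoderm, was the gene that was lower, at 546 ± 11.3 against 707 ± 47.9 CPM. Smooth muscle genes did not follow, with Tagln at 5.28 ± 0.471 and 5.99 ± 0.546 CPM (adjusted p = 0.49), Cnn1 at 5.18 ± 0.154 and 6.13 ± 0.410 (adjusted p = 0.25) and Acta2 under 1 CPM in every library of both groups (adjusted p = 0.072, and 0.013 without monomer library 1).

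Epithelial genes moved down by smaller amounts. Of 24 tested, 16 were lower, none was higher and 8 did not pass, with a median of -0.47 and 13 to 19 lower under the other settings. Rab25, a small GTPase of apical recycling in epithelia, went from 21.4, 20.04 and 19.6 CPM to 7.87, 8.47 and 9.24 CPM, the largest fall of the list (log2 -1.27, SE 0.10, adjusted p = 3e-11). The 3 labelled dimer libraries lie close together and well below the monomer libraries. Polarity gene Crb3 (23.0 ± 1.67 to 12.2 ± 1.99 CPM), tight junction gene Cldn6 (from 264 to 162 CPM), the epithelial regulator Grhl2 (75.8 ± 4.23 to 48.8 ± 4.71) and the splicing factor Esrp1 (102 ± 4.01 to 79.3 ± 3.34) were lower too, as was Epcam by 0.31. The E-cadherin gene Cdh1 stood at 751, 776 and 743 CPM in the monomer libraries and at 715, 774 and 731 CPM in those labelled TCF3 dimer. Its ranges overlap, and the difference of -0.05 did not pass (adjusted p = 0.34). Rab25 was lower than in the TCF4 dimer line at 18.6 CPM (log2 -1.16) and the homodimer line at 23.0 CPM (log2 -1.46). Over the list 17 genes were lower and 2 higher than in the TCF4 dimer line, beside 20.3% and 21.2% of all tested genes. The summed level of the list was 2309 to 2533 CPM in the libraries labelled TCF3 dimer and 2896 to 2952 CPM in the TCF4 dimer line. In the TCF12 dimer group, which was not tested, it was 2257 to 2571 CPM.

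**Figure D3:**
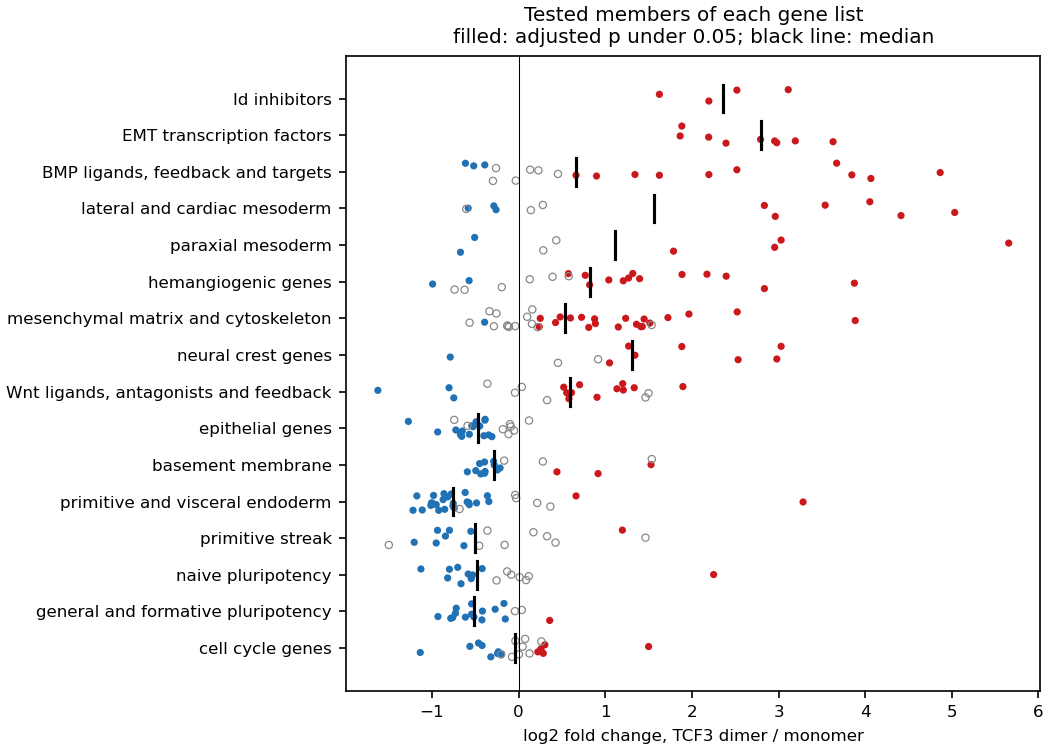
Log2 difference between the libraries labelled TCF3 dimer and the monomer libraries for the tested members of 16 gene lists, 1 point per gene, with passing genes filled and the median as a black line. Every Id and EMT factor lies above 1.6, epithelial genes lie at or below 0.12, and most endoderm and pluripotency genes lie between 0 and -1.3.

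Factors of mesoderm derivatives rose selectively. In the lateral and cardiac list 6 of 12 tested genes were higher, 3 lower (1 to 3 under the other settings) and 3 did not pass. Hand1, a bHLH partner of E-proteins in heart and extraembryonic mesoderm, went from 0.341, 0.224 and 0.215 CPM to 7.28, 2.58 and 3.71 CPM (log2 4.05, SE 0.47, adjusted p = 3.4e-08). Hand2, its relative, had 1 count in all monomer libraries and stood at 2.26, 1.25 and 1.32 CPM. Library 1 labelled TCF3 dimer is well above its group for both, and every monomer library is near or below the detection limit. Mef2c, a myogenic and vascular factor, went from 0.815 ± 0.0839 to 6.501 ± 1.84 CPM and Tbx2 from 0.227 ± 0.301 to 2.73 ± 1.05 CPM. Tbx3, a T-box factor of heart and limb, was lower by 0.58. Of 8 tested paraxial genes 4 were higher and 2 lower (1 or 2 under the other settings). Among them Pax3 went from 0.624 ± 0.262 to 5.27 ± 1.77 CPM, and Meox2, with 1 count in the monomer, stood at 3.18, 2.14 and 2.15 CPM. The somite factor Tcf15 was lower by 0.67. Primitive streak genes went the other way in part, with 7 of 16 lower, 1 higher (0 to 2 under the other settings) and 8 not passing. Eomes was lower by 0.84 (21.9 ± 0.925 to 12.4 ± 2.39 CPM) and Nodal by 0.94 (27.7 ± 2.84 to 14.7 ± 3.54 CPM). Brachyury (T) stood at 1.19 and 1.62 CPM and did not pass (adjusted p = 0.3), and the parental line held 26.2 CPM of it.

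Genes of the hemangiogenic lineage, from which endothelium and blood arise, were higher in 13 of 21 cases and lower in 2, with a median of 0.82. Kdr, the VEGF receptor of the earliest vascular mesoderm, went from 2.39, 2.02 and 2.04 CPM to 17.2, 13.1 and 16.4 CPM (log2 2.84, SE 0.20, adjusted p = 9.1e-13). All 3 labelled dimer libraries lie at more than 5 times every monomer library. Fli1 went from 0.339 ± 0.300 to 5.11 ± 1.96 CPM, Sox18 from 1.23 ± 0.367 to 6.55 ± 1.40 CPM, Gata2 from 0.962 ± 0.235 to 4.43 ± 0.978 CPM and Etv2, the factor that opens the lineage, from 3.15 ± 0.501 to 7.96 ± 0.921 CPM. The mature endothelial genes Cdh5 and Pecam1 did not pass, at 7.52 ± 1.52 and 6.66 ± 1.48 CPM and at 8.63 ± 1.48 and 11.5 ± 2.71 CPM. Pecam1 passed without library 1 labelled TCF3 dimer (log2 0.57, adjusted p = 0.0079). The blood factor Gata1 lay near 1 CPM and did not pass, and Runx1 was lower by 0.99 (11.97 ± 0.626 to 6.10 ± 0.789 CPM). Cd34 was higher by 0.82, but it had already risen from 5.83 to 75.2 CPM when the monomer was induced (log2 3.67, adjusted p = 4.9e-19). Of the 21 genes, 18 were higher than in the TCF4 dimer line and 20 higher than in the homodimer line. Among all tested genes the shares were 21.2% and 21.3%. The summed level of the list was 334.8 to 418.0 CPM in the libraries labelled TCF3 dimer and 196.6 to 212.0 CPM in the TCF4 dimer line. In the TCF12 dimer group, which was not tested, it was 315.1 to 346.5 CPM.

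BMP pathway genes showed ligand and feedback changes. Of 19 tested, 10 were higher, 3 lower (1 to 4 under the other settings) and 6 did not pass. Among the ligands Bmp7 is given above, Bmp4 went from 9.93 ± 1.14 to 18.8 ± 1.37 CPM (log2 0.90, adjusted p = 3.4e-07), Gdf10, with 3 monomer counts, stood at 5.86, 2.41 and 2.56 CPM. Among intracellular members Smad6, an inhibitor induced by the pathway, went from 1.02, 0.672 and 0.644 CPM to 14.4, 6.77 and 9.24 CPM (log2 3.67, SE 0.31, adjusted p = 7.4e-11). Smad9, a transducer, went from 0.224 ± 0.117 to 3.39 ± 0.759 CPM, while the general inhibitor Smad7 was lower by 0.39. All Smad6 and Smad9 values of the labelled dimer libraries exceed all monomer values, and Smad7 fell in the same libraries. The target Msx1 went from 2.19 ± 0.599 to 5.62 ± 1.81 CPM, and the antagonist Chrd did not pass. Of the 10 higher genes, Id1, Id2 and Id3 are also counted among the Id genes.

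Other signalling pathways moved in a mixed way. In the Wnt list 11 of 20 genes were higher and 3 lower (1 to 3 under the other settings). Higher were the feedback inhibitors Nkd1 (3.18 ± 0.397 to 12.03 ± 2.13 CPM), Notum (6.32 ± 0.948 to 16.2 ± 1.91) and Axin2 (12.7 ± 0.713 to 18.4 ± 0.433), and the ligand Wnt6 was lower by 1.62. Notum was also higher than in the TCF4 dimer line at 2.35 CPM (log2 2.74, adjusted p = 1e-14). Notch genes were higher in 9 of 15 cases (6 to 10 under the other settings) and lower in 2 (1 or 2), with the ligand Dll3 from 10.97 ± 0.692 to 38.5 ± 2.56 CPM, the receptor Notch1 from 21.5 ± 1.07 to 43.8 ± 4.07, and the target genes Hey1 and Hey2 higher by 1.23 and 1.87. The 2 that were lower were the ligand Dll1 (12.8 ± 1.06 to 9.10 ± 0.735 CPM, no longer passing with counts thinned to equal depth) and the repressor Hes3, whose levels were 0.910, 0.224 and 0.644 CPM in the monomer libraries against 2 counts in all 3 labelled TCF3 dimer. FGF genes were lower in 11 of 19 cases and higher in 4. The ligands Fgf4 (91.4 ± 3.01 to 53.3 ± 5.40 CPM) and Fgf5 (82.0 ± 1.44 to 49.2 ± 6.89) were lower, while the receptor gene Fgfr2 (12.1 ± 0.977 to 26.3 ± 2.47) and the feedback inhibitor Spred1 (65.8 ± 4.53 to 161 ± 26.1) were higher.

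Of 10 tested neural crest genes 7 were higher and 1 lower. With no filter on low counts 11 of 16 tested were higher, and under the remaining settings 6 to 8 of 10 or 11. Ngfr, the p75 receptor used to sort neural crest cells, went from 6.60, 8.73 and 9.33 CPM to 54.2, 48.1 and 43.1 CPM (log2 2.53, SE 0.12, adjusted p = 1.5e-16). Its labelled dimer libraries lie above all others tested, with means of 14.1 CPM for the TCF4 dimer and 4.41 CPM for the homodimer. The crest specifier Foxd3, also a pluripotency factor, was lower by 0.79 (57.1 ± 5.65 to 33.4 ± 4.02 CPM). The genes of this list overlap with others, since Snai2 and Sox9 are counted as EMT factors and Pax3 as a paraxial gene. Among skeletal and connective tissue factors 8 of 16 were higher and 2 lower (1 to 3 under the other settings), and Ebf2, with 3 counts in the monomer, stood at 5.44, 2.85 and 4.95 CPM while the cartilage collagen gene Col2a1 did not pass (9.07 ± 1.07 and 8.001 ± 1.42 CPM). Other bHLH factors split evenly, with 6 higher and 7 lower of 14 tested (3 to 7 and 4 to 7 under the other settings). Atoh8 (0.261 ± 0.176 to 2.11 ± 0.537 CPM) and Tal1 (3.74 ± 0.432 to 7.77 ± 1.78) were higher, and Tcf23 (19.1 ± 1.09 to 10.7 ± 1.91) and Bhlhe41 (17.9 ± 1.49 to 9.89 ± 0.426) were lower. Twist2 stood at or below 0.356 CPM in all 6 libraries and was not tested.

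Rgs4, a regulator of G protein signalling, had no count in any monomer library and 168 counts in those labelled TCF3 dimer, at 5.36, 4.99 and 3.96 CPM. With 3 counts taken as the floor of each monomer library, it was at least 14.5-fold higher (adjusted p = 7e-11). It was also higher than in the TCF4 dimer line at 1.00 CPM (adjusted p = 9.7e-08) and stood at 0.0343 CPM in the homodimer line. Of the 12 tested genes of its family 6 were higher (4 to 7 under the other settings) and 1 lower (0 or 1), and the other 5 that rose did so by less than 2-fold.

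Primitive and visceral endoderm genes were lower than in the monomer libraries and higher than in the other dimer lines. Of 31 tested genes 24 were lower and 2 higher, with a median of -0.75. The endocytic receptor gene Cubn went from 765, 746 and 870 CPM to 310, 521 and 444 CPM (log2 -0.92, SE 0.12, adjusted p = 1.3e-07). The transcription factor Gata6 went from 41.3, 46.0 and 50.4 CPM to 24.0, 30.5 and 28.2 CPM (log2 -0.76, SE 0.10, adjusted p = 2e-07). For both, library 1 labelled TCF3 dimer is the lowest and no library overlaps the monomer group. Gata4, Sox17, Sox7, Foxa2 and Hnf4a fell by 0.74 to 1.01, and the water channel gene Aqp8 by 1.22. The fetal liver gene Alb went against the list, from 0.332 ± 0.111 to 3.37 ± 1.45 CPM, as did the activin inhibitor gene Fst, by 0.66. The summed level of the list was 3643 to 4091 CPM in the monomer, 3999 to 4857 CPM in the uninduced monomer line, 1829 to 2561 CPM in the libraries labelled TCF3 dimer, 1067 to 1226 CPM in the homodimer line, 1465 to 1584 CPM in the parental line and 859.5 to 947.5 CPM with the TCF4 dimer. The order of these ranges, with no overlap except between the induced and uninduced monomer line, places the libraries labelled TCF3 dimer between the monomer and the homodimer, TCF4 dimer and parental lines. Against the TCF4 dimer line 23 of the 31 genes were higher and none lower (median 1.80), and against the homodimer line 21 were higher and none lower (median 1.50). Among all tested genes, 21.2% and 21.3% were higher against these lines. With the TCF4 dimer, Cubn stood at 67.3 CPM and Gata6 at 4.52 CPM.

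Basement membrane genes, which primitive endoderm makes in bulk, followed the same order, with 11 of 17 lower than in the monomer (6 to 11 under the other settings) and 12 higher than in the TCF4 dimer line. Among all tested genes, 21.1% were lower than in the monomer and 21.2% higher than in the TCF4 dimer line. Lama1 went from 602, 617 and 668 CPM to 388, 516 and 498 CPM (log2 -0.45, SE 0.07, adjusted p = 6.9e-06) and stood at 133 CPM in the TCF4 dimer line. Col4a1 went from 817 ± 28.8 to 631 ± 38.4 CPM, against 184 CPM in the TCF4 dimer line, while Nid1 was higher by 0.44. Endoderm markers thus move with the groups in the comparisons with the monomer, TCF4 dimer and homodimer lines, and their part in the other results was not tested. On induction of the monomer itself, 2 of the 31 endoderm genes were higher and 6 lower. Among all 14084 tested genes, 520 were higher and 394 lower in that comparison.

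**Figure D4:**
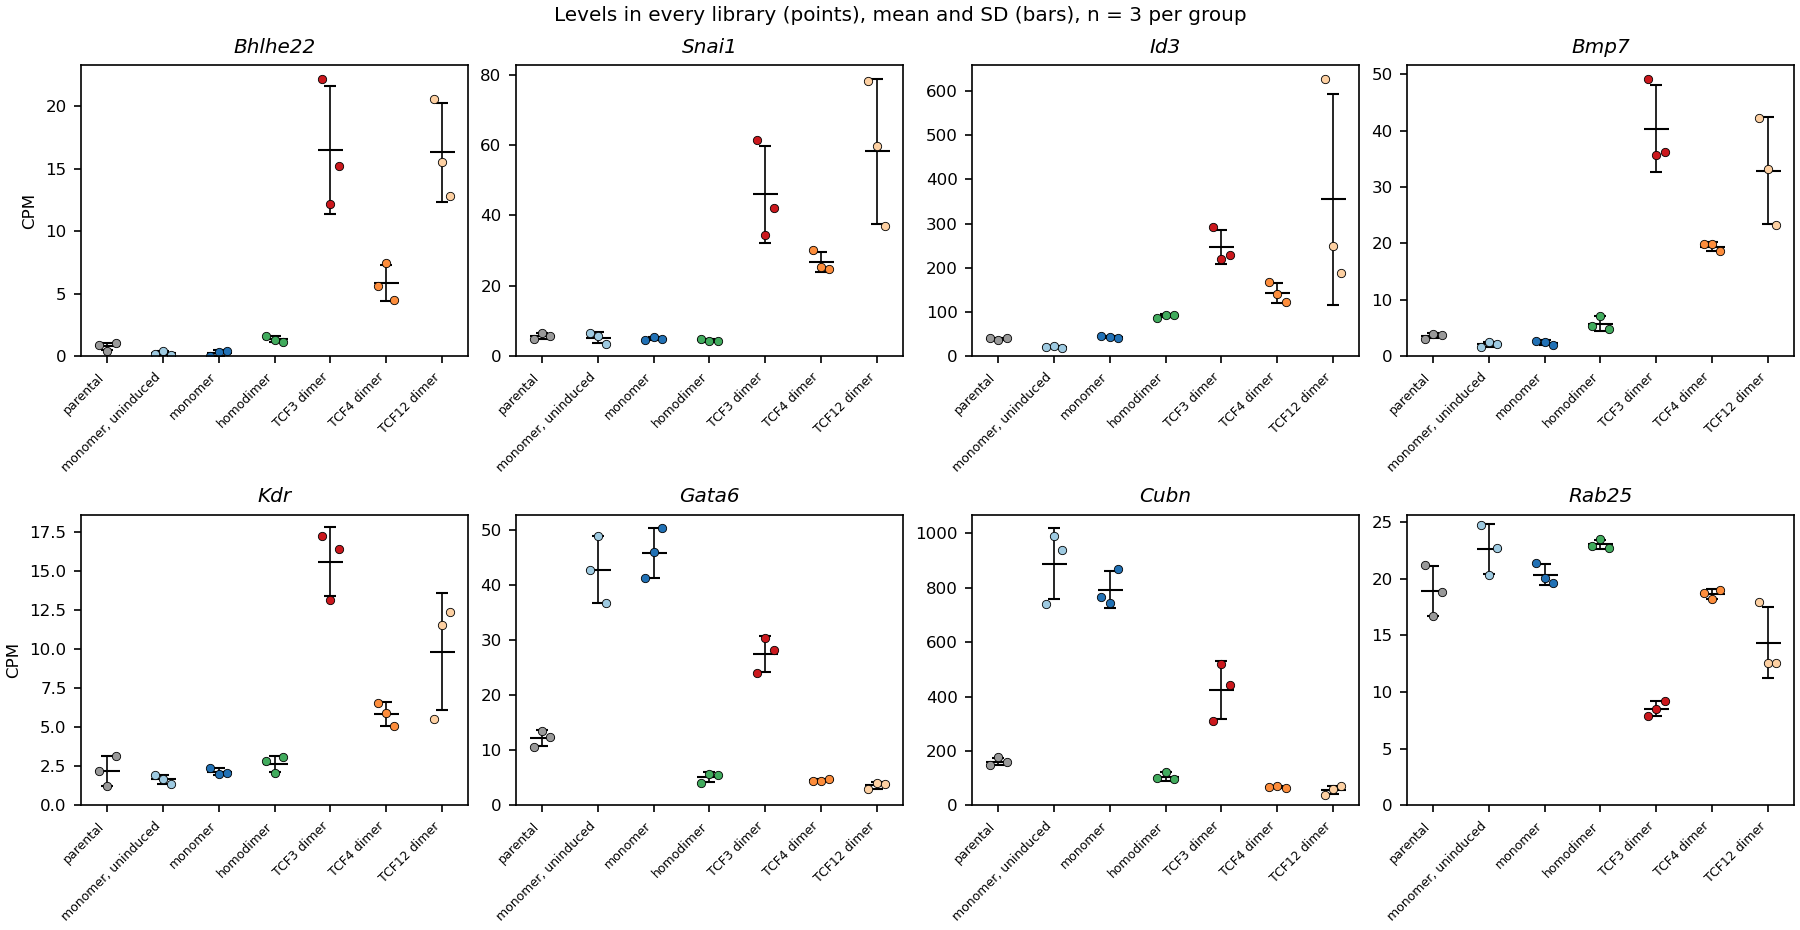
Levels in CPM of 8 genes in every library of the 7 groups, 1 point per library with the mean and SD of 3. Bhlhe22, Snai1, Id3, Bmp7 and Kdr are higher in the libraries labelled TCF3 dimer than in the monomer libraries, Gata6 and Cubn lie between the monomer and the TCF4 dimer, and Rab25 is at 7.87 to 9.24 CPM in the libraries labelled TCF3 dimer.

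Pluripotency genes were mostly lower than in the monomer libraries. Of 17 general and formative genes 14 were lower and 1 higher, with a median of -0.52, and of 16 naive genes 9 were lower and 1 higher, with a median of -0.48. The naive genes went the other way against the TCF4 dimer line, with 14 higher and 1 lower (median 1.29), and against the homodimer line 6 were higher and 3 lower. The general and formative genes were higher in 3 cases and lower in 9 against each of those lines. Among all tested genes, 21.2% were higher and 20.3% lower against the TCF4 dimer line, and 21.3% and 21.1% against the homodimer line. The naive list summed to 474.1 to 588.9 CPM in the libraries labelled TCF3 dimer, overlapping the parental line at 497.3 to 559.7 CPM. The monomer held 623.9 to 710.0 CPM induced and 811.6 to 845.9 CPM uninduced. The general and formative list summed to 3941 to 4234 CPM in the libraries labelled TCF3 dimer, below the parental line at 6204 to 6370 CPM. Pou5f1 went from 565, 600 and 520 CPM to 401, 441 and 432 CPM (log2 -0.42, SE 0.06, adjusted p = 4.1e-07) and Sox2 from 227 ± 7.87 to 161 ± 14.1 CPM. Dnmt3b fell from 1733 to 1066 CPM, and Pou3f1, a factor of the formative state, from 124 ± 2.84 to 65.8 ± 8.39 CPM. Nanog did not pass, with 51.2, 59.1 and 58.6 CPM in the monomer libraries and 47.7, 65.9 and 59.2 CPM in those labelled TCF3 dimer, ranges that overlap. Otx2, a factor of the epiblast and anterior neural plate, was the gene of the first list that was higher, by 0.36. Lncenc1, a noncoding RNA of naive cells, was the one of the second, from 11.3, 13.2 and 11.2 CPM to 55.9, 56.1 and 59.9 CPM (log2 2.25, SE 0.08, adjusted p = 2e-19). The TCF4 dimer line held 10.3 CPM and the parental line 21.8 CPM of it.

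The largest falls among genes that reached 5 CPM without overlap, after Twist1, were Slc30a3, Slc4a11, Pou4f2, Gm16233, Rab25, Ggt1, Muc13, Aqp8, Dnmt3l, Foxq1 and C77370, by 1.19 to 1.76. Dnmt3l, a cofactor of de novo DNA methylation, went from 174, 187 and 167 CPM to 63.5, 88.7 and 79.7 CPM (log2 -1.21, SE 0.08, adjusted p = 1.1e-12). Foxq1, a forkhead factor, went from 20.5, 24.3 and 23.3 CPM to 9.79, 10.2 and 10.2 CPM (log2 -1.20, adjusted p = 4.1e-11). Neither gene's groups overlap. The zinc transporter gene Slc30a3 went from 5.83 ± 1.44 to 1.75 ± 0.599 CPM, Slc4a11 from 22.4 ± 2.64 to 8.45 ± 1.87 CPM, the POU factor gene Pou4f2 from 7.64 ± 0.614 to 3.02 ± 0.828 CPM and the mucin gene Muc13 from 6.18 ± 1.68 to 2.61 ± 0.0593 CPM. Gm16233 is annotated as an antisense transcript, and whether the counting used strand is not given in the sources used here, so its reads cannot be told from those of the gene opposite. Of the 12 falls 7 were higher than in the TCF4 dimer line and 3 lower, namely Rab25, Gm16233 and C77370. Against the homodimer line the counts were 2 higher (Aqp8 and Foxq1) and 7 lower. Between the induced and the uninduced monomer line 3 of them passed, Twist1 and Gm16233 higher after induction and Pou4f2 lower.

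Cell cycle genes showed no common direction, with 5 of 21 higher (3 to 6 under the other settings), 8 lower and a median of -0.04. Over all tested genes, 20.7% were higher and 21.1% lower, the background for every count in this paragraph. Ccnd2 went from 5.25 ± 0.309 to 15.1 ± 2.82 CPM (log2 1.50, adjusted p = 1.2e-08) and Cdkn1c from 23.2 ± 2.39 to 10.7 ± 0.689 CPM (log2 -1.14, adjusted p = 2.6e-09). Of 12 p53 targets 3 were higher, with Cdkn1a by 0.54, and 6 were lower (4 to 6 under the other settings). Of 8 tested neural genes 5 were higher (3 to 5 under the other settings) and 1 lower. Tubb3 went from 59.5 ± 2.33 to 100 ± 8.06 CPM and Pax6 did not pass. Of 6 trophoblast genes 2 were higher (2 or 3 under the other settings) and 2 lower (1 to 3). The largest log2 difference in the trophoblast list, 4.05, equals that of Hand1, which is described above with the lateral and cardiac genes. That of the neural list, 4.06, equals the value of Zic1, described above among the largest rises. Of 5 tested Hox genes Hoxb9 passed, from 0.373 ± 0.361 to 1.52 ± 0.390 CPM, and 0 to 2 did under the other settings. Among markers of feeder fibroblasts, cells on which stem cells can be grown, Col1a1 and Col1a2 were higher, Dcn did not pass (2.57 ± 0.740 and 2.11 ± 0.621 CPM), and Lum stood at or below 0.535 CPM in all 6 libraries.

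Measures of the lines themselves moved with the groups. Among tested genes with a known position, those of chromosome 11 had a median log2 difference of 0.197 over 1098 genes, against -0.035 over the 12591 on other chromosomes, and 45.8% of them were higher against 18.6% elsewhere. In single libraries the chromosome 11 median lay 0.184 to 0.205 above the monomer mean in those labelled TCF3 dimer. The chromosome holds 93 of the 654 rises of at least 2-fold, among them Serpinf1, Cygb, Hand1, Sox9, Ngfr, Notum and Tbx2, while 551 rises lie on other chromosomes and the rest have no matched position. Its part in those genes' differences was not tested. On chromosome 8 the median was -0.161 in the comparison of the libraries labelled TCF3 dimer with the TCF4 dimer line and -0.14 in that with the homodimer line. Of 5 tested Y-linked genes 4 were higher and 1, the unclassified transcript Gm37158, was lower (13.9 ± 1.30 to 8.42 ± 0.613 CPM). The 4 stood at the following levels in the monomer libraries and in those labelled TCF3 dimer, Ddx3y at 2.07 ± 0.242 and 28.1 ± 1.94 CPM, Eif2s3y at 6.64 ± 0.736 and 37.2 ± 2.30 CPM, Uba1y at 0.224 ± 0.117 and 1.43 ± 0.469 CPM and Uty at 1.56 ± 0.472 and 16.6 ± 0.977 CPM, and the uninduced monomer line held 2.06 CPM of Ddx3y. The parental line held 83.1 CPM of Hprt and the uninduced monomer line 3.79 CPM, against 20.4 ± 1.52 CPM in the monomer libraries and 9.35 ± 1.01 CPM in those labelled TCF3 dimer. The Y-linked genes, Hprt and Igf2 were chosen after their values were seen.

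**Figure D5:**
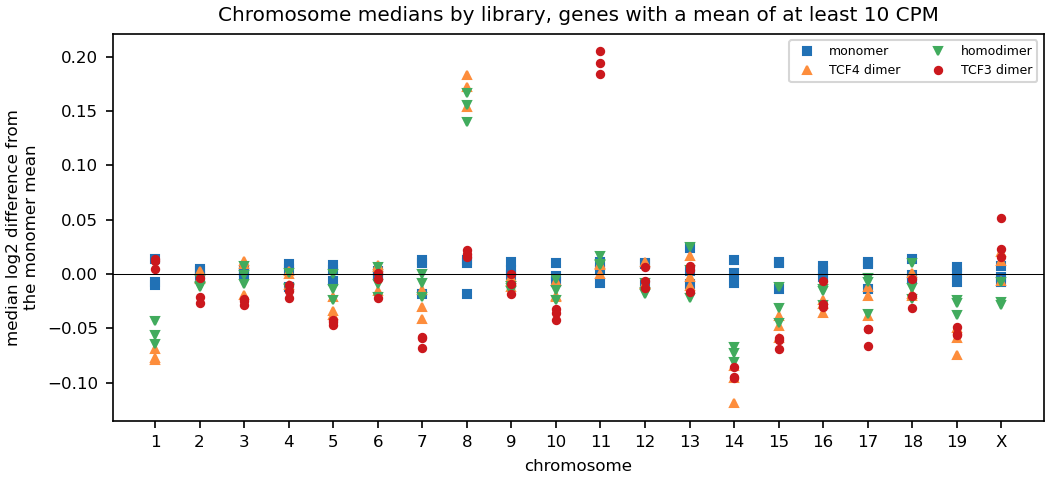
Median log2 difference from the monomer mean for each chromosome, 1 point per library of the monomer, homodimer, TCF4 dimer and labelled TCF3 dimer groups, over genes whose mean reached 10 CPM. The 3 libraries labelled TCF3 dimer stand at 0.184 to 0.205 on chromosome 11, and the TCF4 dimer and homodimer libraries stand apart on chromosome 8.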

How the data were processed

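RNA-seq libraries of 21 embryoid body samples, 7 groups of 3, were made with a TruSeq mRNA kit, per the labels' protocols. Each sample's deposited table holds unnormalized counts for 48321 gene symbols. The submitters' processing notes name FastQC, TopHat2, HTSeq, mm10 and GRCm38, while the annotation and the strand setting are not given in the sources used here. Dates stood in place of 25 symbols in 18 of these files, so they were joined by position and symbols taken from the 3 TCF12 dimer tables. The 18 samples of 6 groups entered 1 edgeR 4.0.16 quasi-likelihood fit (limma 3.58.1, R 4.3.3) with TMM factors and filterByExpr (count of 10, total of 15), leaving 14084 genes, and Benjamini-Hochberg adjustment ran over all of them with a threshold of 0.05. CPM values were computed here from the deposited counts. Positions are from GENCODE M21 (GRCm38), which held 97.2% of tested genes, and promoters from RefSeq. Named genes were the 12 largest rises and 12 largest falls among passing genes with no overlap between libraries and at least 5 CPM in the higher group, the construct genes, and members of 27 lists. The members and lists were chosen with earlier results of these data known. Some genes stand in more than 1 list, so counts of different lists are not independent. The fit was tested on simulated counts. Alternatives were RLE factors, library size only, DESeq2 1.42.0, no filter, a filter of 1 CPM in 3 samples, only the groups compared, 20 or all 21 samples, a replicate block, counts thinned to 6648842 per library, and each sample left out. The number of list members tested differs between these settings, so ranges of list counts do not share a denominator. Floors of 3 counts cover counting error only.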

Additional observations from a re-analysis of the deposited data

Results flagged for a closer look

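The change against the monomer differed between the TCF4 dimer libraries and those labelled TCF3 dimer for 21 of the 24 named genes, by edgeR's test of the difference itself, which is the log2 difference between these groups. Over all tested genes, 21.2% were higher and 20.3% lower in that test. The 24 genes were chosen by their values in the libraries labelled TCF3 dimer. That test uses the same libraries, so the count of 21 is no independent result. Dixon's gap test for an outlying sample was not applied, since each group holds 3 samples. Among the large rises, H19 stood apart by 3.05 (adjusted p = 5.5e-14), Isl1 by 2.06 (adjusted p = 1.1e-06), Serpinf1 by 1.60 (adjusted p = 2.6e-09), Bhlhe22 by 1.50 (adjusted p = 1.6e-07), Cygb by 1.47 (adjusted p = 5.1e-09) and Hhip by 1.32 (adjusted p = 0.00015). Smaller differences of the same sign were those of Adcy5 (1.12, adjusted p = 1.5e-07), Tmem132c (1.03, adjusted p = 4.3e-05), Bmp7 (1.03, adjusted p = 2.5e-09), Frmpd3 (0.92, adjusted p = 0.0021) and Zic1 (0.83, adjusted p = 2.9e-05).

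Among the falls, Foxq1 was higher in the libraries labelled TCF3 dimer than in the TCF4 dimer libraries by 2.86 (adjusted p = 3.6e-15), Aqp8 by 2.17 (adjusted p = 4.6e-15), Pou4f2 by 1.51 (adjusted p = 2.7e-05), Muc13 by 1.27 (adjusted p = 0.00043), Slc4a11 by 0.66 (adjusted p = 0.00038), Twist1 by 0.48 (adjusted p = 1.6e-06) and Dnmt3l by 0.23 (adjusted p = 0.033). The reverse held for Gm16233 at -1.36 (adjusted p = 1.1e-07), Rab25 at -1.16 (adjusted p = 7.5e-11) and C77370 at -0.82 (adjusted p = 2e-08), which were lower than in the TCF4 dimer libraries.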

How the results depend on the processing

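With all 21 samples in the fit, 3162 genes passed against the monomer, 1822 higher and 1340 lower, 2819 passed against the TCF4 dimer line and 3282 against the homodimer line. The spread in that fit was wider (BCV 0.12 against 0.0536), and with TCF12 dimer sample 1 left out 5896 genes passed against the monomer. The other settings kept these counts within 1.5 times the reported ones. Leaving out 1 sample at a time gave 4854 to 5593 genes against the monomer (2431 to 2775 higher, 2423 to 2818 lower), of which 601 to 699 were higher and 104 to 179 lower by at least 2-fold, 4950 to 5289 against the TCF4 dimer line and 5149 to 5554 against the homodimer line. Same-numbered samples of the monomer and TCF3 dimer groups did not deviate together over all tested genes (r = 0.0492, 0.0228 and 0.00351). Whether they share a culture or batch was not tested. A replicate block gave 5988, 5950 and 6055 genes. Of 144 genes named in the text with a test, 137 kept their direction and side of the threshold under each setting in which they were tested. That was fewer than 16 settings for 8 of the 144, namely Hand2, Atoh8, Tbx18, Acta2, Gata1, Hoxb9, Hes3 and Uba1y. Genes that did not pass changed sign at values near 0, Cdh1 to 0.01 with library size only and Nanog to between -0.10 and -0.01 without TCF3 dimer sample 2, TCF3 dimer sample 3 or monomer sample 1 (range over samples left out -0.10 to 0.13). Tcf3 passed without monomer sample 3, Acta2 without monomer sample 1 and Pecam1 under 4 settings, while Nid1 did not pass with all 21 samples and Dll1 did not with thinned counts. The cause was not tested. Depth limits statements on genes below about 0.3 CPM.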
